A study of Mus musculus with 6 samples.

Results

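The unfolded protein response was followed through 10 genes that encode its sensors, its transcription factors and their closest partners. Eif2ak3, Atf4, Ddit3, Ppp1r15a and Trib3 stand for the PERK arm, Ern1 and Xbp1 for the IRE1 arm, and Atf6, Atf6b and Mbtps1 for the ATF6 arm. No threshold on their values was used to choose these genes, although earlier results of these data were known, and all 10 had a value among the 10245 genes of the deposited table. RNA was sequenced from the whole pancreas of 3 control mice of genotype Ptf1a(CreER/+) and 3 Ptf1a cKO mice of genotype Ptf1a(CreER/fl), with a separate mouse behind each library. PTF1A is the transcription factor that keeps acinar cells, the enzyme-secreting cells of the pancreas, in their differentiated state. All 6 mice received 3 doses of tamoxifen by gavage in corn oil, at 0.25 mg per g of body weight, and were sacrificed on day 14. The CreER recombinase is made from the Ptf1a locus itself, so in the adult pancreas it acts in acinar cells and not in ducts, stroma or blood cells, and the control mice too carried a single functional Ptf1a allele. Control mice were 4 months old (1 male, 2 females) and Ptf1a cKO mice 5 months old (1 male, 2 females), so that age and genotype cannot be told apart.

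Acinar cells hold a very large endoplasmic reticulum (ER) and make more secreted protein than most other cells, and they keep the unfolded protein response running at rest. PERK, encoded by Eif2ak3, phosphorylates the initiation factor eIF2 when unfolded protein builds up, which slows translation in general but favors translation of the ATF4 mRNA. IRE1, encoded by Ern1, cuts a short stretch out of the Xbp1 mRNA, and the spliced mRNA encodes the active factor XBP1. ATF6 is a membrane-bound factor that travels to the Golgi, where the proteases S1P (Mbtps1) and S2P (Mbtps2) release its active part. These switches act on phosphorylation, splicing and cleavage, so the level of an mRNA does not measure the activity of its arm.

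The sequences below show the stretch that IRE1 cuts out of the Xbp1 mRNA, and matches to promoter motifs known for factors of the response and for PTF1A. Binding to these matches was not measured here. The first is from the mouse Xbp1 coding sequence in the GENCODE vM21 annotation (GRCm38, chr11:5524262-5524327, plus strand, exon 4 of 5), with the 26 bases that IRE1 removes in capitals and 20 bases on either side.
Xbp1 mRNA at the IRE1 cut: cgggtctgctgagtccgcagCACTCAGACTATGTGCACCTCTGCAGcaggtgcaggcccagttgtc
Removal of these bases (chr11:5524282-5524307) shifts the reading frame and lengthens it from 267 to 371 codons. The excised bases make up 1.22% of the 2129 bases of this transcript. The deposited value counts reads over the whole gene, so spliced and unspliced Xbp1 cannot be told apart in it.

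Promoters were taken from RefSeq on GRCm38.p6, from 250 bases before the annotated start to 50 after it. A promoter was given there for 9 of the 10 genes (all but Atf6). The promoters of Atf4 and Xbp1 are shown because they hold the canonical E-box bound by the PTF1 complex (CACCTG, on either strand). In both it lies on the minus strand and is therefore read as the capitals CAGGTG.
Atf4 promoter, chr15:80254934-80255183, plus strand, bases 250 to 1 before the start: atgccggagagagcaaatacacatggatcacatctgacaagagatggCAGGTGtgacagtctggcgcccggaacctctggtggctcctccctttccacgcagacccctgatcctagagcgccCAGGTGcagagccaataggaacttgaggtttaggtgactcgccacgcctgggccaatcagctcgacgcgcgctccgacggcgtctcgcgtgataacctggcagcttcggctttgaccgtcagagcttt
Xbp1 promoter, chr11:5520391-5520640, plus strand, bases 250 to 1 before the start: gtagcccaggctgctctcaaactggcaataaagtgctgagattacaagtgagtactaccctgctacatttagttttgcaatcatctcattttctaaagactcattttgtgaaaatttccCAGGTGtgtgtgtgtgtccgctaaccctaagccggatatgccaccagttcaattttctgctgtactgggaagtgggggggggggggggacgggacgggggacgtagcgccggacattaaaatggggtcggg
The promoter of Hspa5, which encodes the ER chaperone BiP, is shown as the reference for an ER stress response element, the site of ATF6. Its blocks CCAAT and CCACG, with any 9 bases between them, are in capitals.
Hspa5 promoter, chr2:34771970-34772089, plus strand, bases 120 to 1 before the start: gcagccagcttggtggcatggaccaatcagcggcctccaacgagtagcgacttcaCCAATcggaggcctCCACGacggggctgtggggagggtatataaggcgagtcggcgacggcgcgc

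The E-box was found in 3 of the 9 promoters (Atf4 at 203 and 128 bases before the start, Xbp1 at 131 bases before it, Eif2ak3 at bases 45 to 50 of the transcript). It is a common sequence, found in 20.2% of all 32851 promoters of this length. No match to the ER stress response element was found in the 9 promoters, against 0.119% of all promoters and 5 of 12 promoters of a list of ATF6 targets (Calr, Creld2, Derl3, Hsp90b1, Hspa5). The second form of this element (ATTGG and CCACG with 1 base between them), held by 0.0365% of promoters, was not matched in the 9 promoters, and neither was the XBP1 site TGACGTGG (0.676%) or the amino acid response element TGATGCAAT of ATF4 (0.192%). Among 24 promoters of ATF4 and CHOP targets, Aars, Fgf21 and Nupr1 held the last of these. Both strands were searched. The XBP1 site shares 5 letters with the block CCACG of either stress element, read on the other strand. Only the E-box was matched in the 9 promoters, so different motifs could not overlap there.

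The values are normalized read counts on a scale that the authors made common to the 6 libraries, with the median gene between 125.0 and 128.5 in each. Ptf1a itself checked the labels, at 566.4, 600.7 and 651.6 normalized counts in the controls against 19.8, 70.1 and 10.2 in the Ptf1a cKO libraries (limma adjusted p = 3.29e-04). The most Ptf1a was left in Ptf1a cKO replicate 2. Of the acinar cells' own products, 21 of 29 digestive enzymes and other secreted proteins were lower and 1 was higher, and their sum was 14037433 to 17229962 in the controls and 2084084 to 5662231 in the Ptf1a cKO libraries. Markers of other cells were higher, with 10 of 11 fibroblast and stellate markers (sum 3089 to 3507 against 6084 to 10698), 6 of 7 leukocyte markers (724.1 to 1310 against 1640 to 4510) and 4 of 7 duct markers (3780 to 4663 against 25292 to 109770). All markers of these 4 lists had a value above 0 in every library. No gene of the table had its highest value under 27.6 normalized counts. The duct marker Car2, at 13.6, 4.88 and 2.63 in the controls, was thus in the table only through its Ptf1a cKO values. Of the genes tested, 16.8% were lower and 17.1% were higher at an adjusted p under 0.05, and in 24.3% all Ptf1a cKO libraries lay under all controls (26.5% over them). The part of cell makeup in the results that follow was not tested, and in RNA from a whole organ fewer cells of a type and less RNA per cell cannot be told apart.

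Of the 10 genes, 4 were lower in Ptf1a cKO pancreas (Atf6, Eif2ak3, Atf4 and Ppp1r15a), 0 were higher and 6 did not pass the test with limma. At an unadjusted p under 0.05 the numbers were 5 and 0, with Trib3 as the fifth. The same fit called 40.0% of these genes lower and 16.8% of all genes. Their median log2 fold change was -0.48, beside 0.04 for all genes. The falls came from the PERK arm (3 of 5 genes) and the ATF6 arm (1 of 3), and neither gene of the IRE1 arm passed the test. All Ptf1a cKO libraries lay under all controls for 5 genes (the 4 and Trib3) and over them for 1 (Mbtps1).

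**Figure D1:**
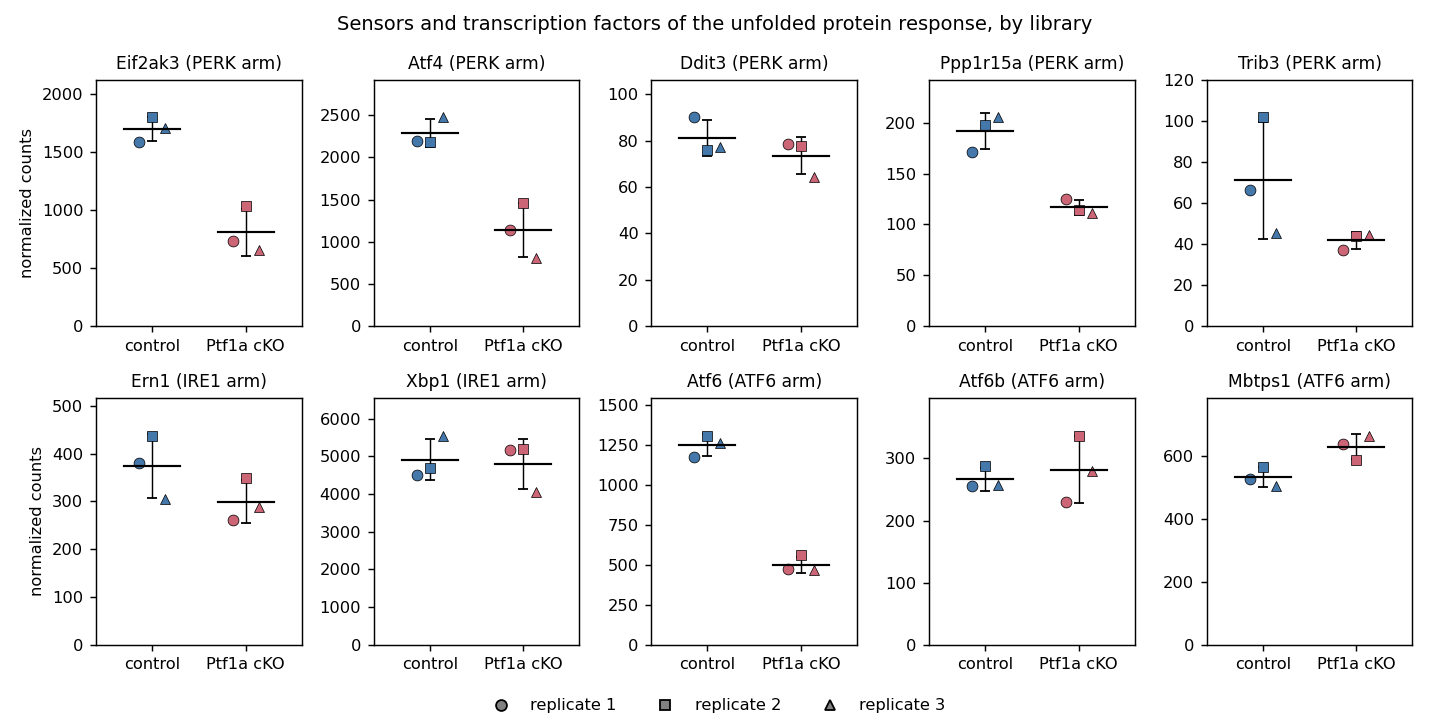
Normalized counts (vertical axes, each from 0) of the 10 genes in 3 control (blue) and 3 Ptf1a cKO (red) libraries, with the shape of a point giving the replicate and lines giving the mean and SD. The groups stand well apart for Eif2ak3, Atf4, Ppp1r15a and Atf6, and they overlap for Ddit3, Ern1, Xbp1 and Atf6b.

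In the PERK arm, the kinase was measured first. Eif2ak3 stood at 1585, 1799 and 1710 normalized counts in the controls and at 731.2, 1032 and 656.0 in the Ptf1a cKO libraries. The groups did not overlap, and the highest Ptf1a cKO value was that of replicate 2. Its mean went from 1698 ± 107.6 to 806.6 ± 199.2 (SD, n = 3 each), which is 47.5% of control. The log2 fold change was -1.10 (SE 0.17, 95% interval -1.48 to -0.71, limma adjusted p = 0.00155), and 3.81% of all genes had a lower change.

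Atf4 encodes the transcription factor whose translation rises when eIF2 is phosphorylated. It was at 2199, 2186 and 2475 normalized counts in the controls and at 1142, 1457 and 811.8 in the Ptf1a cKO libraries. The Ptf1a cKO values spread more than those of the controls and still lay below them in each case. The mean went from 2287 ± 162.9 to 1137 ± 322.6, or 49.7% of control, with a log2 fold change of -1.04 (SE 0.20, 95% interval -1.49 to -0.60, limma adjusted p = 0.004).

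Ddit3 encodes CHOP, a factor induced by ATF4 that is known for its role in cell death under ER stress. It was at 90.1, 75.8 and 77.3 normalized counts in the controls and at 78.6, 77.7 and 64.2 in the Ptf1a cKO libraries. The groups overlapped. The log2 fold change of -0.14 (SE 0.14) had a 95% interval from -0.46 to 0.19 (limma adjusted p = 0.49). A fall of the size seen in Atf4 lay outside this interval, and a fall smaller than 0.46 did not. The log2 fold change was at -0.062 without control replicate 1 and at -0.047 without Ptf1a cKO replicate 3.

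Ppp1r15a encodes GADD34, the stress-induced subunit that brings a phosphatase to eIF2 and so ends the block on translation. It was at 171.6, 197.8 and 205.4 normalized counts in the controls and at 124.6, 114.5 and 110.9 in the Ptf1a cKO libraries. All Ptf1a cKO values were lower, and here replicate 1 and not replicate 2 was the highest of them. The mean went from 191.6 ± 17.7 to 116.7 ± 7.09, or 60.9% of control, and the log2 fold change was -0.70 (SE 0.12, 95% interval -0.97 to -0.43, limma adjusted p = 0.00262).

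Trib3 encodes a pseudokinase that is induced by ATF4 and CHOP and curbs them in turn. It was at 66.2, 101.8 and 45.3 normalized counts in the controls and at 37.1, 43.8 and 44.3 in the Ptf1a cKO libraries. The controls differed from each other more than the groups did, and the lowest of them was barely above the highest Ptf1a cKO value. The log2 fold change was -0.65 (SE 0.26, 95% interval -1.25 to -0.06) and did not pass the test (limma adjusted p = 0.0822). It passed in 1 of the 6 fits that left out a library, at -0.93 without control replicate 3 (limma adjusted p = 0.0195), and it was at -0.37 without control replicate 2 (limma adjusted p = 0.277).

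In the IRE1 arm, Ern1 was at 379.8, 437.3 and 304.6 normalized counts in the controls and at 260.5, 348.7 and 288.0 in the Ptf1a cKO libraries. The groups overlapped through control replicate 3 and Ptf1a cKO replicate 2. The log2 fold change was -0.31 (SE 0.16, 95% interval -0.68 to 0.05, limma adjusted p = 0.16), and it was at -0.19 without control replicate 2.

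Xbp1, the substrate of IRE1, was at 4508, 4696 and 5547 normalized counts in the controls and at 5166, 5186 and 4041 in the Ptf1a cKO libraries. The groups overlapped over most of their range. The means were 4917 ± 553.8 and 4798 ± 655.2, with a log2 fold change of -0.04 (SE 0.16, limma adjusted p = 0.87). The 95% interval ran from -0.40 to 0.32, which leaves out changes of the size seen in Eif2ak3, Atf4 and Atf6.

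In the ATF6 arm, Atf6 was at 1171, 1305 and 1261 normalized counts in the controls and at 473.4, 556.8 and 463.2 in the Ptf1a cKO libraries. Both groups were tight, and the gap between them was wider than either. The mean went from 1246 ± 68.4 to 497.8 ± 51.3, or 40.0% of control. This was the largest and best supported change among the 10 genes, with a log2 fold change of -1.32 (SE 0.12, 95% interval -1.59 to -1.05, limma adjusted p = 1.29e-04), and 2.72% of all genes had a lower change.

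Atf6b encodes a paralog of ATF6 that is cleaved in the same way and is a weak activator. It was at 254.9, 287.3 and 256.8 normalized counts in the controls and at 229.7, 336.6 and 280.0 in the Ptf1a cKO libraries, with the controls inside the range of the Ptf1a cKO values. Its log2 fold change was 0.07 (SE 0.15, 95% interval -0.27 to 0.40, limma adjusted p = 0.753). Mbtps1, which encodes the S1P protease that makes the first cut in ATF6, was at 525.7, 565.6 and 503.3 normalized counts in the controls and at 637.6, 586.3 and 663.2 in the Ptf1a cKO libraries. All Ptf1a cKO values were above the controls, but the log2 fold change of 0.24 (SE 0.11, 95% interval -0.01 to 0.49) did not pass the test (limma adjusted p = 0.116).

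**Figure D2:**
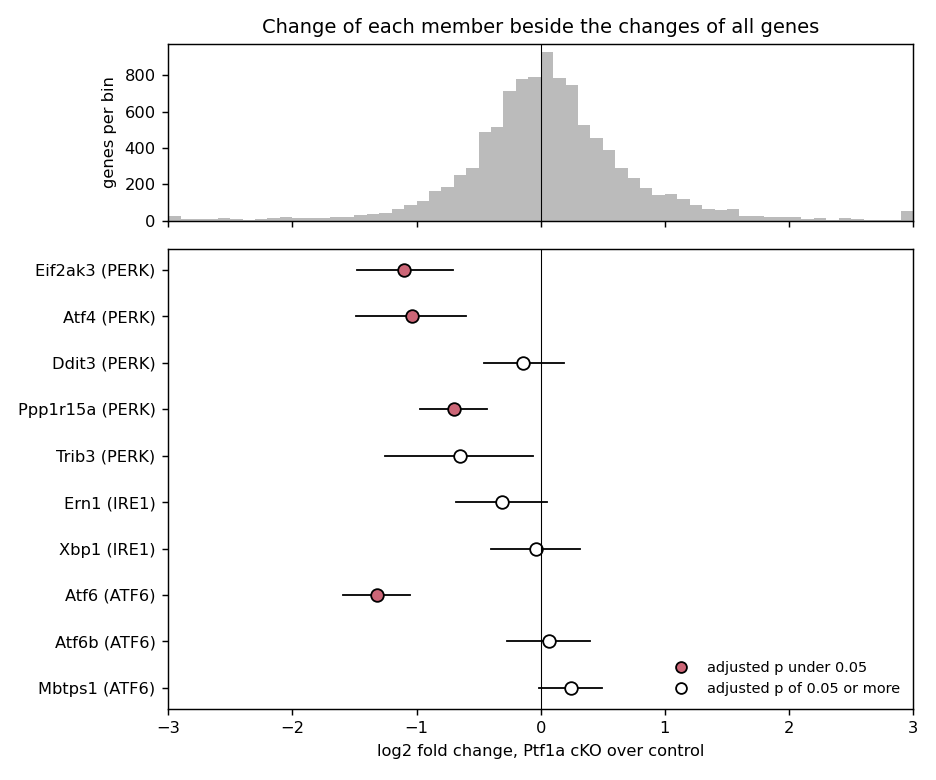
Log2 fold change of Ptf1a cKO over control (horizontal axis) for each of the 10 genes with its 95% interval, filled where the adjusted p was under 0.05, under a histogram of all 10245 genes in which changes beyond 3 in either direction are counted in the outermost bins. Atf6, Eif2ak3, Atf4 and Ppp1r15a have intervals wholly below 0 and filled points, and Trib3 has an interval just below 0 and an open point.

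For single genes the exact permutation test of 3 libraries against 3 cannot go below a two-sided p of 0.10, the value it gave for each gene whose groups did not overlap. The 4 falls passed the test in all 6 fits that left out a library, between -1.40 and -1.27 for Atf6, -1.29 and -0.96 for Eif2ak3, -1.24 and -0.82 for Atf4, and -0.77 and -0.65 for Ppp1r15a. Counting these 6, they passed it under 17 of 17 alternatives other than the scaling to the same total, which turned their direction. That scaling moved the median of all genes to a log2 fold change of 1.48, and at that scale Atf6 (0.17), Eif2ak3 (0.40), Atf4 (0.45) and Ppp1r15a (0.77) were all above 0. Relative to the median gene they stayed at -1.31, -1.08, -1.03 and -0.71. All directions given here are therefore relative to the typical gene of the same library.

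**Figure D3:**
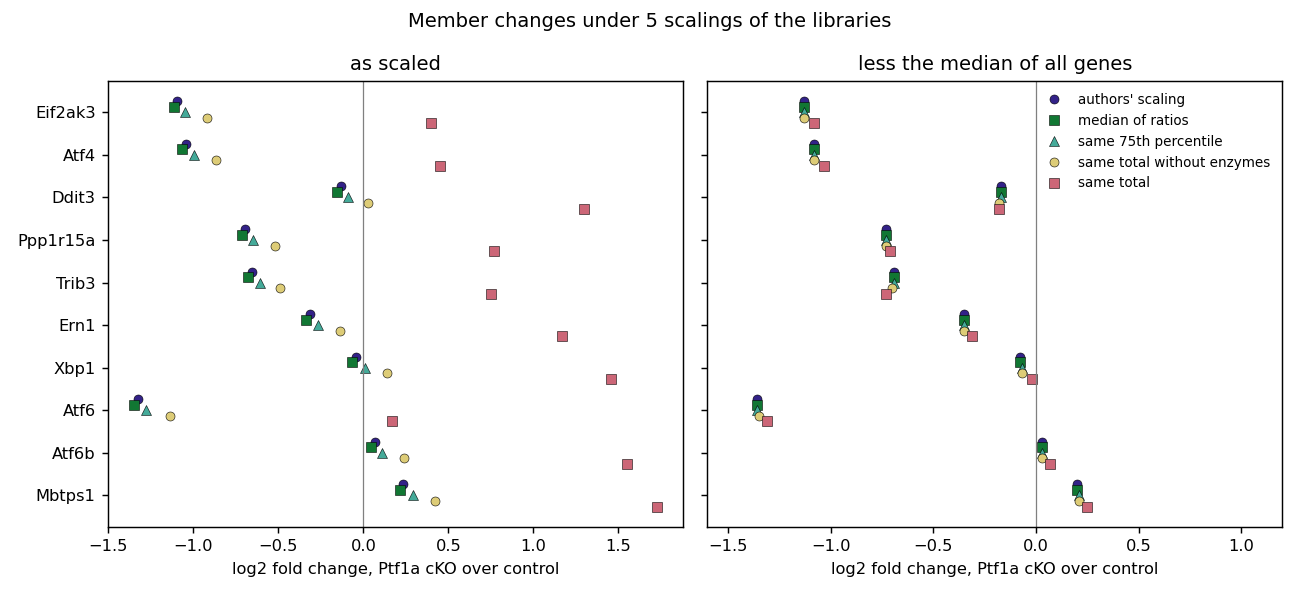
Log2 fold change of the 10 genes, Ptf1a cKO over control (horizontal axes), under 5 scalings of the libraries (points), as scaled (left) and less the median change of all genes (right). Scaling to the same total (squares in red) shifts all genes to the right on the left panel, and on the right panel the 5 scalings fall on each other.

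Levels between genes were compared per kilobase of exon, on the normalized count scale, with all annotated exons of a gene joined. The order rests on these lengths, which need not be those of the transcripts present. In the controls Xbp1 was the highest (1514 ± 170.5 per kb), followed by Atf4 (969.7 ± 69.1), Eif2ak3 (281.8 ± 17.9), Atf6 (134.9 ± 7.41), Atf6b (96.6 ± 6.61) and Ppp1r15a (65.2 ± 6.03). Mbtps1 (50.4 ± 2.99), Ddit3 (47.3 ± 4.59), Ern1 (45.7 ± 8.14) and Trib3 (33.5 ± 13.4) came last, and among these 4 the ranges of mean ± SD (n = 3) of neighbors in the order overlapped. By this measure the sensors were unequal in mRNA, with Eif2ak3 highest, Atf6 next and Ern1 lowest. In the Ptf1a cKO libraries Xbp1 (1477 ± 201.7 per kb) and Atf4 (482.2 ± 136.8) still led. Atf6b (102.3 ± 19.4) now lay above Atf6 (53.9 ± 5.56) per kb, but below it before division by length (282.1 against 497.8 normalized counts). By mean ± SD Atf6b overlapped with Eif2ak3 (133.8 ± 33.1), as Mbtps1 (59.7 ± 3.71) did with Atf6. Ddit3 (42.9 ± 4.69), Ppp1r15a (39.7 ± 2.42) and Ern1 (36.6 ± 5.52) overlapped among themselves but not with Atf6 above them, and Trib3 was again the lowest (19.6 ± 1.91).

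Ratios of a pair of genes within a library do not depend on how libraries were scaled, and 12 such pairs were compared by an exact permutation test. The ratios were not corrected for exon length. The groups did not overlap in 9 of the 12 pairs. Each of these had an exact p of 0.1, the smallest possible, and an adjusted exact p of 0.133, so that the test could call no pair. The share over all pairs of genes was not computed. For single genes, all Ptf1a cKO libraries lay under all controls in 24.3% and over them in 26.5%. Where a gene that passed the limma test is set over one that did not, the ratio largely restates the change of the first. Atf6 over its paralog Atf6b was 4.59, 4.54 and 4.91 in the controls and 2.06, 1.65 and 1.65 in the Ptf1a cKO libraries, a log2 difference of -1.39. Eif2ak3 fell behind each of the other eIF2 kinases, with log2 differences of -1.25 against Eif2ak1 (the heme-regulated kinase), -1.69 against Eif2ak2 (the kinase that senses double-stranded RNA) and -1.39 against Eif2ak4 (the kinase that senses amino acid shortage), with the groups apart in each. Atf4 over Ddit3 was 24.4, 28.8 and 32.0 in the controls and 14.5, 18.8 and 12.6 in the Ptf1a cKO libraries.

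Against the chaperone gene Hspa5, a target of ATF6, the sensors and Xbp1 differed. Atf6 over Hspa5 was 0.165, 0.185 and 0.170 in the controls and 0.0772, 0.0723 and 0.0927 in the Ptf1a cKO libraries. Eif2ak3 over Hspa5 was 0.224, 0.255 and 0.230 against 0.119, 0.134 and 0.131. Both ratios were lower in every Ptf1a cKO library, while Xbp1 over Hspa5 (0.636, 0.664 and 0.747 against 0.842, 0.674 and 0.809) overlapped between the groups. Bhlha15 encodes MIST1, an acinar factor for the secretory machinery, and it fell more than any of the 10 genes (log2 fold change -2.19, SE 0.33, limma adjusted p = 0.00146). Xbp1 over Bhlha15 was 0.773, 0.911 and 0.919 in the controls and 5.24, 2.21 and 4.97 in the Ptf1a cKO libraries. Eif2ak3 over Bhlha15 was also higher in each Ptf1a cKO library (log2 difference 1.10), and Atf6 over Bhlha15 overlapped (0.87, exact p = 0.2). The Ptf1a cKO library with the most Ptf1a left, replicate 2, had the lowest of the Ptf1a cKO values in all 3 ratios over Bhlha15. Ppp1r15a over Ppp1r15b overlapped as well (log2 difference 0.22, exact p = 0.2).

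**Figure D4:**
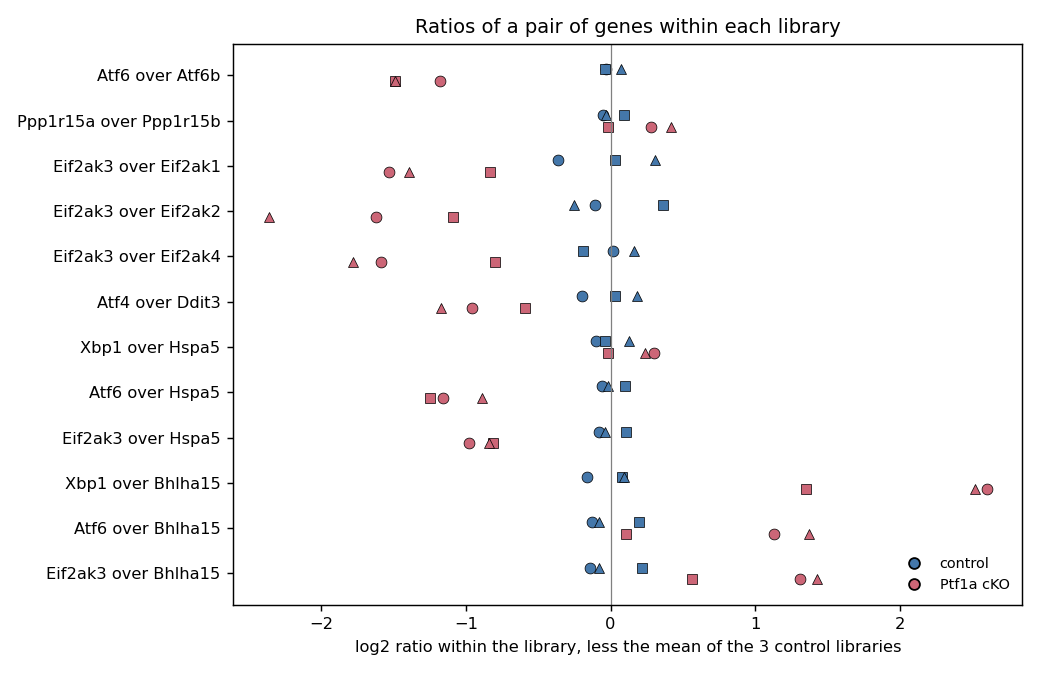
Log2 ratio of 12 pairs of genes within each library, less the mean of the 3 controls (horizontal axis), for controls (blue) and Ptf1a cKO libraries (red), with the shape of a point giving the replicate. The groups are apart in 9 pairs, with the Ptf1a cKO points to the left for Atf6 and Eif2ak3 over paralogs and Hspa5 and for Atf4 over Ddit3, and to the right for Xbp1 and Eif2ak3 over Bhlha15.

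Of 16 genes of the eIF2 switch around PERK (eIF2 kinases, subunits of eIF2 and of its exchange factor eIF2B, phosphatase subunits and the regulators Nck1 and Dnajc3), 9 were lower (56.2%, against 16.8% of all genes), 0 were higher (1 at an unadjusted p under 0.05 in the same limma fit) and 7 did not pass the test. The median log2 fold change was -0.45. Eif2s2, the beta subunit of eIF2, was at 441.8 ± 23.1 normalized counts in the controls and 226.6 ± 41.6 in the Ptf1a cKO libraries (log2 fold change -0.97, limma adjusted p = 0.00143), and Eif2b1, a subunit of eIF2B, at 437.0 ± 60.3 and 237.5 ± 33.2 (-0.87, limma adjusted p = 0.0024). Ppp1r15b, the constitutive counterpart of Ppp1r15a, went from 1457 ± 121.5 to 775.3 ± 128.5 (-0.92, limma adjusted p = 0.00174). None of the other 3 eIF2 kinases passed the test, with log2 fold changes of 0.15 for Eif2ak1 (limma adjusted p = 0.488), 0.59 for Eif2ak2 (limma adjusted p = 0.0596) and 0.29 for Eif2ak4 (limma adjusted p = 0.166). Eif2ak3 was the most abundant of the 4 kinases per kilobase in the controls, at 281.8 ± 17.9 normalized counts per kb beside 60.3 ± 11.6 for Eif2ak1, 24.9 ± 4.32 for Eif2ak4 and 9.99 ± 1.98 for Eif2ak2.

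Downstream of PERK, 23 of 28 ATF4 and CHOP targets in the table were lower (82.1%, against 16.8% of all genes), 1 was higher (3.57%, against 17.1%) and 4 did not pass the test, with a median log2 fold change of -1.11. Fgf21, a hormone that stimulates acinar secretion, had the largest fall. It was at 480.3, 429.6 and 393.5 normalized counts in the controls and at 12.9, 88.9 and 14.6 in the Ptf1a cKO libraries (log2 fold change -3.86, SE 0.55, limma adjusted p = 0.00105). Stc2, a secreted glycoprotein, had a log2 fold change of -2.75 (limma adjusted p = 1.99e-04), Chac1, which degrades glutathione, of -2.53 (limma adjusted p = 0.00246) and Psat1, an enzyme of serine synthesis, of -2.22 (limma adjusted p = 1.64e-04). Atf5, a transcription factor of the same family as ATF4, had the smallest adjusted p, with 1299, 1577 and 1612 normalized counts in the controls and 448.2, 455.5 and 517.6 in the Ptf1a cKO libraries (log2 fold change -1.65, SE 0.13, limma adjusted p = 6.75e-05). The 1 higher gene was Atf3, an early stress factor named here after its value was seen. It was at 10.8, 25.3 and 21.3 normalized counts in the controls and at 41.6, 39.3 and 44.3 in the Ptf1a cKO libraries (log2 fold change 1.06, limma adjusted p = 0.0259). No gene of the table had its highest value under 27.6. Atf3 was thus in the table only through its Ptf1a cKO values, and no conclusion is drawn from its rise. It did not pass the test in the fits without control replicate 1, without Ptf1a cKO replicate 1 or without Ptf1a cKO replicate 3. Under the scaling to the same total, 6 of the 28 were lower and 10 were higher, beside 129 lower and 9587 higher of all 10245 genes. The share of higher genes in the list was then below that of all genes.

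Downstream of IRE1, 17 of 31 XBP1 targets were lower (54.8%, against 16.8% of all genes), 1 was higher (3.23%, against 17.1%) and 13 did not pass the test, with a median log2 fold change of -0.48, although Xbp1 itself did not pass. Serp1, which steadies membrane proteins at the translocon, went from 8055 ± 1056 to 3062 ± 650.7 normalized counts (log2 fold change -1.41, SE 0.19, limma adjusted p = 7.50e-04). Sec61b, a translocon subunit (-0.94, limma adjusted p = 0.00766), Rrbp1, the ribosome receptor of the rough ER (-0.91, limma adjusted p = 0.00246) and Edem3, which trims misfolded glycoproteins (-0.78, limma adjusted p = 0.00237), were lower too. Sec23b, a COPII coat subunit, was the exception. It stood at 830.0, 805.4 and 674.3 normalized counts in the controls and at 1433, 1405 and 1461 in the Ptf1a cKO libraries (log2 fold change 0.90, SE 0.12, limma adjusted p = 7.50e-04). Without control replicate 2 the number of lower XBP1 targets was 11, and that of all lower genes went from 1724 to 1182. Under the scaling to the same total none of the 31 was lower and 29 were higher. That share was near that of all genes, of which 129 were lower and 9587 of 10245 were higher at that scale.

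Among 9 genes of IRE1 signaling and RNA ligation, Mapk9, a JNK kinase, was lower (log2 fold change -0.48, limma adjusted p = 0.00967) and Itpr1, a calcium channel of the ER, was higher (0.97, limma adjusted p = 0.00153), and 7 did not pass the test (11.1% in either direction, against 16.8% lower and 17.1% higher among all genes). IRE1 also degrades some other mRNAs at the ER. Of 7 such substrates, 0 were lower (0 also at an unadjusted p under 0.05 with limma) and 4 were higher (57.1%, against 17.1% of all genes), namely Scara3 (2.43, limma adjusted p = 3.17e-04), Sparc (1.08, limma adjusted p = 0.0178), Col6a1 (1.04, limma adjusted p = 0.0134) and Pmp22 (0.74, limma adjusted p = 0.00824). Sparc and Col6a1 are also genes of fibroblasts, whose markers were higher in 10 of 11 cases in the same libraries, and the part of fibroblasts in these 4 values was not tested. The other 3 substrates, named here after their values were seen, did not pass the test. They were Bloc1s1 (0.09, limma adjusted p = 0.659), Pdgfrb (-0.10, limma adjusted p = 0.755) and Hgsnat (-0.25, limma adjusted p = 0.153).

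Downstream of ATF6, 4 of 15 targets were lower (26.7%, against 16.8% of all genes), 2 were higher (13.3%, against 17.1%) and 9 did not pass the test, shares that are near those of all genes, with a median log2 fold change of -0.22. The 4 lower genes act in the removal of misfolded proteins or in folding. Sel1l, the scaffold of the HRD1 ubiquitin ligase, was at 14155, 14747 and 12231 normalized counts in the controls and at 2871, 5420 and 2529 in the Ptf1a cKO libraries (log2 fold change -2.01, SE 0.27, limma adjusted p = 7.72e-04). Derl3, a channel partner of that ligase, had a log2 fold change of -1.15 (limma adjusted p = 0.0087), Herpud1, which organizes it, of -0.86 (limma adjusted p = 0.00961) and Sdf2l1, a cofactor of BiP named here after its value was seen, of -0.84 (limma adjusted p = 0.0103). The 2 higher genes encode folding factors. Pdia4, a disulfide isomerase, was at 417.1, 481.8 and 504.8 normalized counts in the controls and at 691.7, 837.7 and 650.0 in the Ptf1a cKO libraries (log2 fold change 0.63, SE 0.13, limma adjusted p = 0.00726). Calr, a lectin chaperone also named after its value was seen, was at 2088 ± 289.2 and 3058 ± 178.8 (0.56, limma adjusted p = 0.0145). The number of higher ATF6 targets was 1 without control replicate 1 and 1 without control replicate 2, beside 1233 and 1181 higher genes in all.

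Hspa5, the best known target of ATF6 and the gene with the stress element printed above, was at 7087, 7069 and 7424 normalized counts in the controls and at 6135, 7697 and 4996 in the Ptf1a cKO libraries. Ptf1a cKO replicate 2 was the highest of the 6 libraries and the other Ptf1a cKO libraries were the lowest. Its log2 fold change of -0.22 (SE 0.18, 95% interval -0.63 to 0.19) did not pass the test (limma adjusted p = 0.373), and the interval leaves out a fall of the size seen in Atf6. Of 9 other membrane factors and partners of ATF6, 0 were lower (0 also at an unadjusted p under 0.05 with limma) and 2 were higher (22.2%, against 17.1% of all genes). At an unadjusted p under 0.05 with limma 5 of the 9 were higher, beside 2418 of all 10245 genes. Their median log2 fold change was 0.32. The 2 that passed were Gtf2i (0.70, limma adjusted p = 0.00914), which binds stress elements, and Creb3l1 (0.53, limma adjusted p = 0.0155), a factor cleaved like ATF6. Mbtps2, the S2P protease, was at 88.0 ± 8.89 and 94.1 ± 16.8 normalized counts (0.08, limma adjusted p = 0.718). Among 5 genes of cell death under ER stress (another 4 of that list were not analysed here), 0 were lower by either measure and 2 were higher (40.0%, against 17.1% of all genes), Bcl2l11 (0.97, limma adjusted p = 0.0135) and Bax (0.81, limma adjusted p = 0.00418). At an unadjusted p under 0.05 with limma 3 of the 5 were higher.

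**Figure D5:**
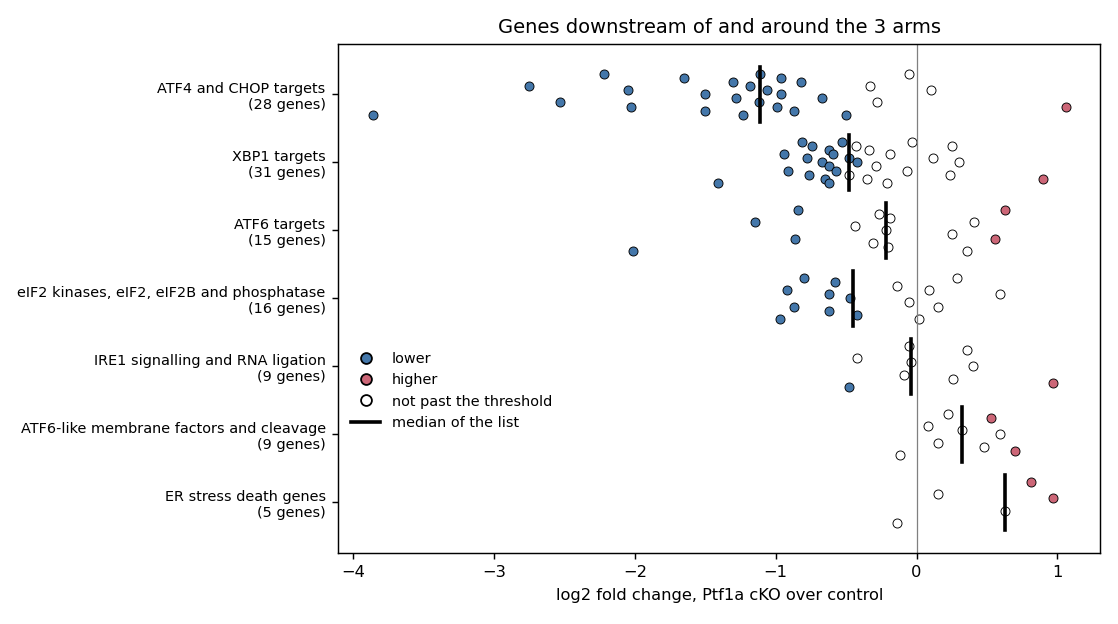
Log2 fold change of Ptf1a cKO over control (horizontal axis) for the genes of 7 lists around the 3 arms, 1 point per gene, colored blue where lower and red where higher at an adjusted p under 0.05, with a bar at each list's median. The ATF4 and CHOP targets reach furthest to the left, with 23 of 28 lower, while the ATF6 targets lie on both sides with 4 lower and 2 higher.

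The 4 genes that fell followed the remaining Ptf1a only in part. Among all 1724 lower genes, 66.7% had their highest Ptf1a cKO value in replicate 2, 22.8% in replicate 1 and 10.5% in replicate 3. Atf6, Eif2ak3 and Atf4 had it in replicate 2, and Ppp1r15a in replicate 1. As a description over the 6 libraries, which mostly reflects the gap between the groups, the genes most like Eif2ak3 by Pearson correlation of log2 values were Ssr1 (r = 0.9994), Pias2 and Slc41a1. Those most like Atf4 were Gid4 (r = 0.9994), Txnl4a and Nudt3, those most like Atf6 were Nceh1 (r = 0.9994), Ap3s1 and Klf15, and those most like Ppp1r15a were R3hdm2 (r = 0.9988), Ap1ar and Camk2n2. Such values are common in these libraries. For Eif2ak3 766 genes had an r over 0.95, for Atf6 758, for Atf4 611 and for Ppp1r15a 347.

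The counting was not stated to use strand. In the GRCm38 annotation 8.05% of the exon bases of Eif2ak3, 3.97% of those of Ddit3 and 0.409% of those of Ppp1r15a overlap a gene on the opposite strand, and reads there cannot be assigned to either gene. Exons of the other 7 genes overlap no other gene.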

How the data were processed

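RNA from the pancreas of 3 control and 3 Ptf1a cKO mice was sequenced, and the authors deposited a table of normalized read counts per gene symbol, a signal scaled across the 6 libraries. Per the labels, the submitters' processing notes name TopHat2 2.0.4, Bowtie 0.12.7.0, SAMtools 0.1.18.0, HTSeq 0.6.0 and the build mm9. According to the methods, edgeR with TMM normalization was used by the authors. The methods also give the uniquely aligned reads of each library, in ranges that overlap between the groups. The deposited values hold decimals with no common step, so the whole reads behind each value are unknown, no count model was run, and precision rests on 3 mice per group. Another 3 entries that name no gene (75.7% to 82.6% of a library's values) were left out.

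Values were divided by 13.6393, a pseudocount of 0.25 was added (3.41 normalized counts), log2 was taken and a mean of at least 0.25 was required. The groups were compared with limma 3.58.1 (R 4.3.3) with a trend and no covariate, two-sided, with Benjamini-Hochberg adjustment over all 10245 genes and a threshold of 0.05. Fold changes on this scale understate those of low genes. Ratios were tested by exact permutation (scipy 1.17.1). The fit was checked on simulated data. Exon lengths and the Xbp1 sequence came from GENCODE vM21 and promoters from RefSeq (GRCm38.p6), neither being the build of the table.

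The genes, the lists and the rule for names were chosen with earlier results of these data known. The rule named the 10 genes, from each list at most 6 genes (the 3 with the smallest adjusted p and the 3 with the largest change among those called), paralogs of the 10, and the 3 genes most like each called gene. The lists were ATF4 and CHOP targets, XBP1 targets, ATF6 targets, genes of the eIF2 switch, IRE1 signaling, IRE1 decay substrates, ATF6-like factors, death genes, and markers of acinar, duct, fibroblast and stellate, leukocyte, plasma, endothelial, endocrine and fat cells. A further leukocyte marker is not reported here. Dnajc3 stands in 2 lists, and so does Pdgfrb. Alternatives were other pseudocounts, filters, scalings and forms of the fit, a replicate block, sex as a covariate, a threshold of 0.01 and each library left out in turn. Ern2 was not analysed here, so its ratio to Ern1 was not computed.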

Additional observations from a re-analysis of the deposited data

How the results depend on the processing

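With every library scaled to the same total, 0 of the 10 genes were lower and 7 were higher, beside 129 lower and 9587 higher genes in all. The ATF4 and CHOP targets then had 6 lower and 10 higher, the XBP1 targets 0 and 29, and the ATF6 targets 1 and 13, and the log2 fold changes turned to 0.40 for Eif2ak3, 0.45 for Atf4, 1.29 for Ddit3, 0.77 for Ppp1r15a, 0.75 for Trib3, 1.17 for Ern1, 1.46 for Xbp1 and 0.17 for Atf6. By construction this scaling lifts all genes of libraries with less enzyme RNA. Without the digestive enzymes in the total, 1 of the 10 genes was higher (Mbtps1, 0.42, limma adjusted p = 0.0176), 1031 genes were lower and 2817 higher, the XBP1 targets had 10 lower and 3 higher, 5 ATF6 targets were higher, and Ddit3 (0.034) and Xbp1 (0.14) changed sign. At the same 75th percentile 4 ATF6 targets were higher and Xbp1 was at 0.006. With a mean of at least 5, 0 ATF4 and CHOP targets were higher and Trib3 gave no value. At a threshold of 0.01, 962 genes were lower and 832 higher, 0 ATF4 and CHOP targets were higher, 10 XBP1 targets were lower and 1 ATF6 target was higher.

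Leaving out each library in turn gave 0 to 1 higher ATF4 and CHOP targets, 11 to 20 lower XBP1 targets, 1 to 3 higher ATF6 targets, -0.10 to 0.08 for Xbp1, -0.067 to 0.20 for Atf6b, -0.93 to -0.37 for Trib3, -0.45 to -0.19 for Ern1 and -0.19 to -0.047 for Ddit3. In these fits the lower genes in all numbered 1182 to 1747 and the higher genes 1174 to 1854. The cause was not tested where not given.

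Whether replicate numbers pair the samples could not be settled. Correlations of deviations were small, at 0.0391, 0.134 and 0.144 for same-numbered libraries and from -0.202 to 0.0829 for the others. The values 0.144 and 0.134 were the highest of all. With the replicate number as a block, 4 of the 10 genes were lower and 0 higher, as were 1711 and 1814 genes in all, and Ptf1a cKO replicate 1 correlated best with control replicate 2. Depth could not be read from the table, and with 3 mice per group a change as small as that of Mbtps1 could not be separated from the spread.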

Other observations

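The values of the other marker lists in the same libraries were as follows. Of 8 endocrine markers and of 4 fat markers, 0 passed the test with limma in either direction, also at an unadjusted p under 0.05, and their median log2 fold changes were 0.11 and 1.07. Of 6 endothelial markers 1 was higher, and of 2 plasma cell markers in the table Igj was higher and Sdc1 did not pass. Acinar transcription factors had 4 of 6 genes lower, with a median of -1.62. Their sum stood at 29.1% of control, against 50.3% for the 5 genes of the PERK arm, 68.9% for the 3 genes of the ATF6 arm and 96.3% for the 2 genes of the IRE1 arm. These sums were not corrected for length and mostly follow the most abundant genes, in the arms Eif2ak3 and Atf4, Atf6, and Xbp1. In the ATF6 arm Atf6 was at 40.0% of control, Atf6b at 106% and Mbtps1 at 118%. The sums therefore do not rank the arms.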
